A study of Mus musculus with 12 samples.

Results

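Regrowth of Socs2-null liver was examined here at 1 time, 24 h after the operation, against Socs2-null liver that was not operated on. Of the 12 arrays in the series, 4 belong to this comparison: both arrays titled as Socs2 null mutant at 24 h and both at time 0. Each was hybridized with RNA pooled from 3 animals, so n = 2 pools a group, and a p-value measures the spread between pools. The mice were adult C57BL/6 animals carrying a null mutation of Socs2 (spelled "Soc2 null mutant" in the genotype field). The 24 h group had undergone 2/3 hepatectomy, the surgical removal of most of the liver, whereas the 0 h group had no operation and no group had a sham one. Surgery, loss of liver mass, time since the operation and the hour of harvest therefore cannot be told apart. The 4 wildtype C57BL/6 arrays at 0 h (unoperated) and 24 h (2/3 hepatectomy) served to test whether the response differed between genotypes. The labels state neither the animals' sex nor how the null allele was made nor at what hour livers were taken.

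After partial hepatectomy the remaining hepatocytes, normally quiescent, leave G0 after a priming phase driven by cytokines such as interleukin 6, then pass through G1 under growth factor signals and replicate their DNA, while the liver goes on making plasma proteins and handling ammonia, bile acids and lipids. Entry into S phase calls on E2F transcription factors, which switch on the genes of the replication fork. SOCS2 is a feedback inhibitor of the growth hormone receptor, induced by STAT5, and mice without it overgrow. In rodent liver many enzymes also follow the circadian clock or the sex-dependent pattern of growth hormone release.

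Socs2 itself read 26.4 and 27.6 on the unoperated Socs2-null arrays (replicates 1 and 2, the order used throughout) and 26.6 and 29.5 at 24 h. Every one of these lay under the brightest of the 17 control probe sets that carry no mouse gene, the level taken here as background. On the wildtype arrays it read 546 and 261 at 0 h and 306 and 116 at 24 h, above all Socs2-null arrays. Mean array intensity spanned 248 to 256 over the 4 Socs2-null arrays. The hybridization controls, added to each hybridization, averaged 9.86 and 9.97 on the log2 scale at 0 h and 9.34 and 9.72 at 24 h, and the 3′ to 5′ log2 ratio of the Actb probe sets was 0.548 and 0.547 at 0 h and 0.415 and 0.322 at 24 h. Both measures moved with time, and their part in the changes was not tested beyond a fit with the hybridization level as a covariate. Albumin, the hepatocyte's main plasma protein, stayed among the brightest genes, with Alb at 18344 and 18280 before and 15822 and 16832 at 24 h (adjusted p = 0.0853).

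Changes are given as the difference in log2(intensity + 16) between 24 h and 0 h ± standard error, with limma p-values adjusted by Benjamini-Hochberg over all 17097 genes and a threshold of 0.05. A fold is taken on the same scale, which understates changes of dim genes. At 24 h, 1857 genes (10.9%) had risen and 2319 (13.6%) had fallen, and the median gene stood at -0.04. Changes of more than 2-fold numbered 346 rises and 394 falls. Centring the arrays on their medians turned the split to 2455 rises and 1604 falls, so that 60.5% of called genes rose rather than 44.5%. With each of the 4 arrays left out in turn 668 of the rises and 843 of the falls were called every time. In such fits a group left with 1 array is assumed to vary like the other groups. The count of rises was 1036 and 793 without replicate 1 and 2 of 0 h and 1126 without replicate 2 of 24 h, and that of falls was 1221 and 1249 without replicate 1 and 2 of 0 h. As these are whole-liver samples, fewer cells of a type and less RNA per cell cannot be told apart.

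**Figure D1:**
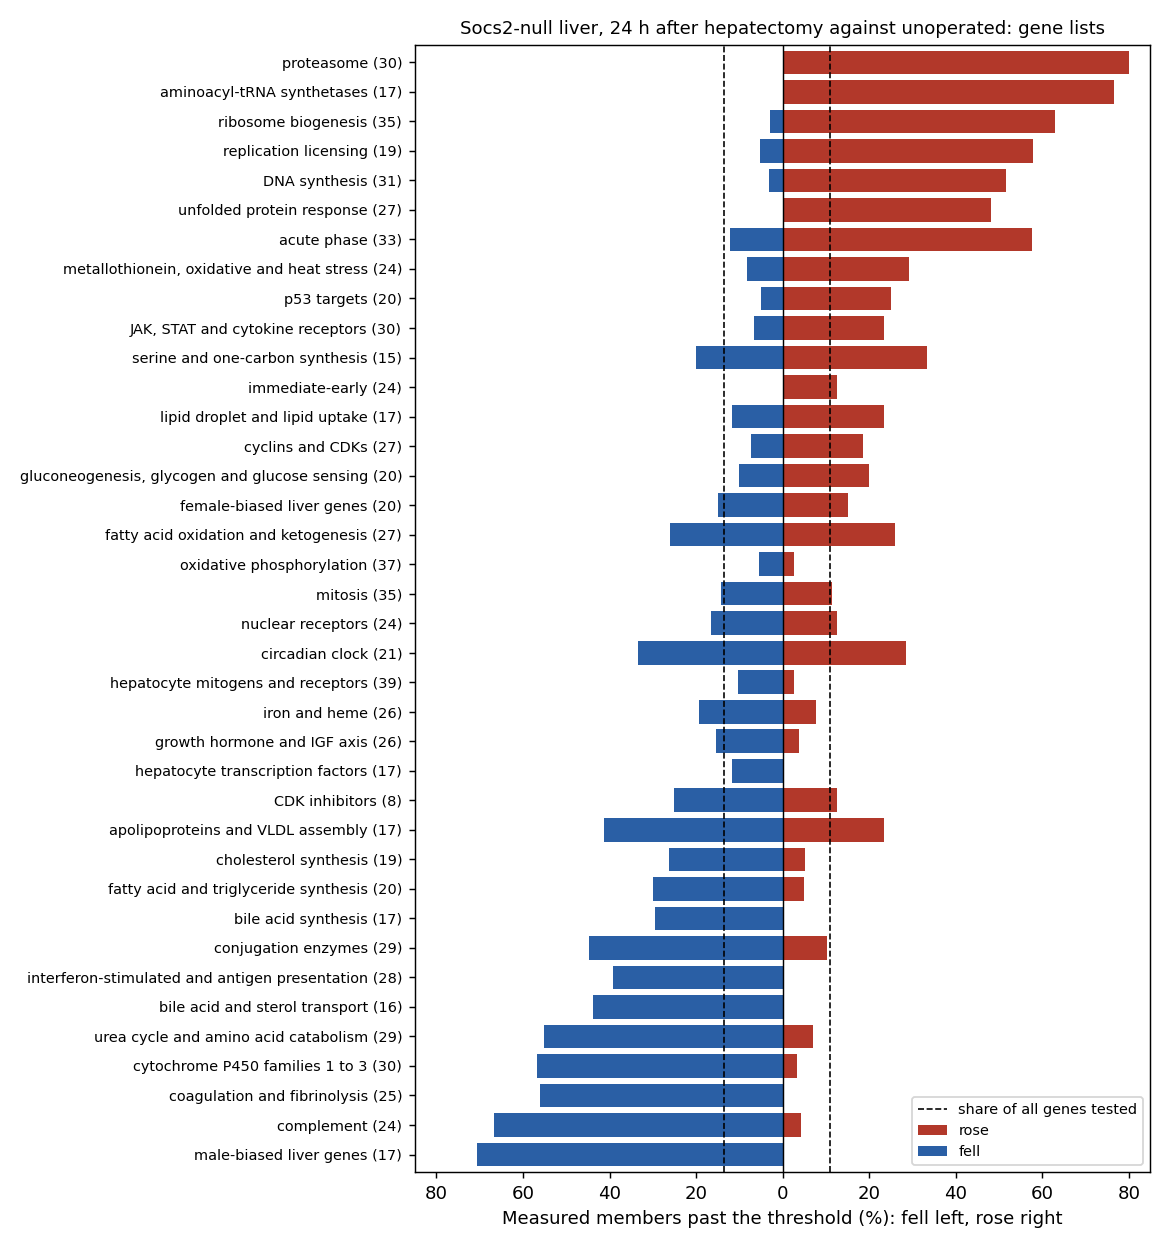
Percentage of the measured members of 38 gene lists (number measured in brackets) that rose (right, red) or fell (left, blue) in Socs2-null liver at 24 h against 0 h by limma at an adjusted p of 0.05. Dashed lines mark the share of all genes, 10.9% for rises and 13.6% for falls. Proteasome, tRNA synthetase, ribosome biogenesis, replication and acute phase lists lie to the right, and male-biased, complement, coagulation and cytochrome P450 lists to the left. Some lists share members, as the male-biased list does with the complement and P450 lists.

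The largest rise belonged to Lcn2, lipocalin 2, a siderophore-binding protein of the acute phase. It read 206 and 100.3 at 0 h and 8421 and 8528 at 24 h, a change of 5.72 ± 0.26 or 52.8-fold (adjusted p = 1.98e-06). The arrays of the 2 times were far apart and those at 24 h nearly equal. Next came Cdkn1a, which encodes the CDK inhibitor p21, at 43.5 and 45.8 before and 1443 and 1828 after (4.76 ± 0.34, adjusted p = 3.14e-05), with a change of 4.14 in its other probe set. Ly6d, a membrane-anchored surface protein, went from 42.9 and 38.3 to 1381 and 937 (4.35 ± 0.18), and Orm2, an acute phase orosomucoid, from 269.8 and 181 to 4751 and 4263 (4.25 ± 0.29). The other rises among the 15 largest ranged from 2.94 for Thbd, the endothelial thrombin cofactor thrombomodulin, to 3.54 for Cyp2b10, a cytochrome P450 induced through the receptor CAR. They included Apoa4, a lipoprotein component, at 861 and 495 before and 5708 and 7608 after, Tubb2a, a beta-tubulin, at 663 and 399 before and 5504 and 4566 after, and the macrophage scavenger receptor Marco at 116 and 117 before and 1411 and 957 after. Arrays of the 2 times that do not overlap were a condition for naming a gene among the 15 largest changes in each direction, so their separation is part of that choice.

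Several of the large rises started from background, so their folds are bounds. Psat1, an enzyme of serine synthesis, read 23.3 and 16.3 before and 279.7 and 539 after, at least 7.25-fold. Orm3 reached 349 and 532, at least 8-fold, and Thbd 305 and 455, at least 6.95-fold. Fgf21, a hormone that the liver secretes under fasting or stress, reached 471 and 525 (at least 9.18-fold, adjusted p = 0.00387), but its adjusted p was 0.0501 without replicate 2 of 24 h, with a change of 3.45, and 0.0997 with the hybridization covariate, with a change of 3.16. Sult1e1, the estrogen sulfotransferase, read 225 and 1102 at 24 h, and its change of 3.40 became 2.29 (adjusted p = 0.0808) without replicate 2 of 24 h and 4.50 without replicate 1. Derl3, a factor of protein disposal at the endoplasmic reticulum, read 281 and 1808 at 24 h (3.32 ± 0.89). Its adjusted p was 0.0668 and 0.102 without replicate 1 or 2 of 0 h and 0.216 without replicate 2 of 24 h, with the change at 2.02 in the last and 4.63 without replicate 1 of 24 h. Cd14, a co-receptor for bacterial lipopolysaccharide, read 342 and 2591 at 24 h and changed by 1.80 or 4.67 without replicate 2 or 1 of that group. Cyp2b10, at 126 and 71 before and 683 and 2385 after, changed by 2.65 or 4.43 in the same fits. Both kept their call.

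Upp2, a uridine phosphorylase of the liver, fell the most, from 3648 and 3738 to 71.2 and 52.1 (-5.59 ± 0.58, adjusted p = 0.000262). Dbp, a transcription factor under direct clock control, went from 850.3 and 1147 to 32.1 and 29.8, which is under background and at least 19.1-fold lower (adjusted p = 4.13e-06). A block of 3-beta-hydroxysteroid dehydrogenase genes followed, led by Hsd3b5, a male-predominant ketosteroid reductase, at 3587 and 4362 before and 451 and 107 after (-4.05 ± 0.51). Hsd3b6, Hsd3b2 and Hsd3b3 changed by -3.78, -3.29 and -3.13. These copies are near-identical and may share probes, as may the Orm, Saa, Cyp2c and Ugt copies named here, so their members are not independent. In each Hsd3b gene the pool of replicate 2 at 24 h was the lower, and without replicate 1 or 2 of 24 h the changes were -5.01 or -3.09 for Hsd3b5, -4.54 or -3.02 for Hsd3b6, -3.93 or -2.64 for Hsd3b2 and -4.08 or -2.18 for Hsd3b3. The other falls among the 15 largest ranged from -2.53 to -3.24 and held the transporter Abca8a, the lectin Clec2h (at least 6.45-fold), the succinate receptor Sucnr1 (764 and 706 before, 89.4 and 59.5 after), Keg1, the sulfotransferase Sult2a8, Tlcd2, Gm32461, Mcm10 and Akr1d1, the steroid 5-beta-reductase of bile acid synthesis (1373 and 1347 before, 295 and 166 after).

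Genes of the replication fork rose, where 10.9% of all genes rose and 13.6% fell. Of 19 measured members of the licensing list, which holds the MCM helicase and the factors that load it, 11 rose and 1 fell (median 0.58, against -0.04 for all genes), and of 31 DNA synthesis genes 16 rose and 1 fell (median 0.65). Mcm6 went from 64.2 and 71.0 to 688 and 291, a change of 2.47 ± 0.35 (adjusted p = 0.00109). Its sister subunits Mcm2 (46.0 and 25.4 before, 262 and 133 after) and Mcm4 (46.1 and 43.6 before, 211 and 146 after) changed by 2.01 and 1.66. Mcm5 read 41.0 and 34.9 before, which is under background, and 216 and 108 after, at least 3.03-fold higher. In each of these 4 subunits replicate 1 was the brighter at 24 h, and both 24 h arrays lay above both at 0 h. Without replicate 2 or 1 of 24 h Mcm6 changed by 3.07 or 1.88 and kept its call. Prim1, the catalytic subunit of primase, went from 60.8 and 55.0 to 318 and 195 (1.85 ± 0.24, adjusted p = 0.000629). Pcna, the sliding clamp, was already at 641 and 656 before the operation and reached 1501 and 1313 (1.10 ± 0.17, adjusted p = 0.00125). Gins2, Rpa2, Fen1, Rfc3 and Rfc2 rose by 0.79 to 1.09, and Mcm3 and Pole2 rose from background by at least 1.73-fold and 1.45-fold. Counts of rises in the licensing list were 6, 6 and 7 without replicate 1 of 0 h, replicate 2 of 0 h and replicate 1 of 24 h, and in the DNA synthesis list 7 without replicate 2 of 0 h and 23 without replicate 2 of 24 h. With the hybridization level as a covariate 4 genes of each list rose.

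The proximal promoters of these genes are shown because E2F is their textbook regulator. RefSeq promoter windows of GRCm38.p6 were searched over the 250 bases before the annotated start, on both strands, for the letters TTTCCCGC, TTTCGCGC, TTTGCCGC or TTTGGCGC. Promoters were held for 41 of the 50 measured genes of both lists. A match was found in 6 of 16 licensing promoters (37.5%) and 5 of 34 DNA synthesis promoters (14.7%), against 1.86% of all 32851 promoters. Among promoters of genes of both lists that rose it was 5 of 29 (17.2%), and among those of genes that did not pass the threshold 6 of 19 (31.6%), a difference that was not tested. The stretches around the matches, in capitals, of the 3 genes that rose in every fit with an array left out are those of Mcm6 at chr1:128359725-128359835 (minus strand), Mcm5 at chr8:75109336-75109395 (plus strand) and Rfc3 at chr5:151651209-151651238 (minus strand):
Mcm6: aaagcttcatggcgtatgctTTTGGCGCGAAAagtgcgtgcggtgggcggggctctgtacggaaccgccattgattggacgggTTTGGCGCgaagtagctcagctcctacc
Mcm5: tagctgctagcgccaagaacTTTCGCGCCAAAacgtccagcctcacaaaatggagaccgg
Rfc3: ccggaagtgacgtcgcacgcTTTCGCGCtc
In Mcm6 and Mcm5 matches on opposite strands overlap in 1 run of capitals, and the match nearest the start ends 39, 141 and 2 bases before it in Mcm6, Mcm5 and Rfc3. Such a match is a description of the letters and not a measured binding site.

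**Figure D2:**
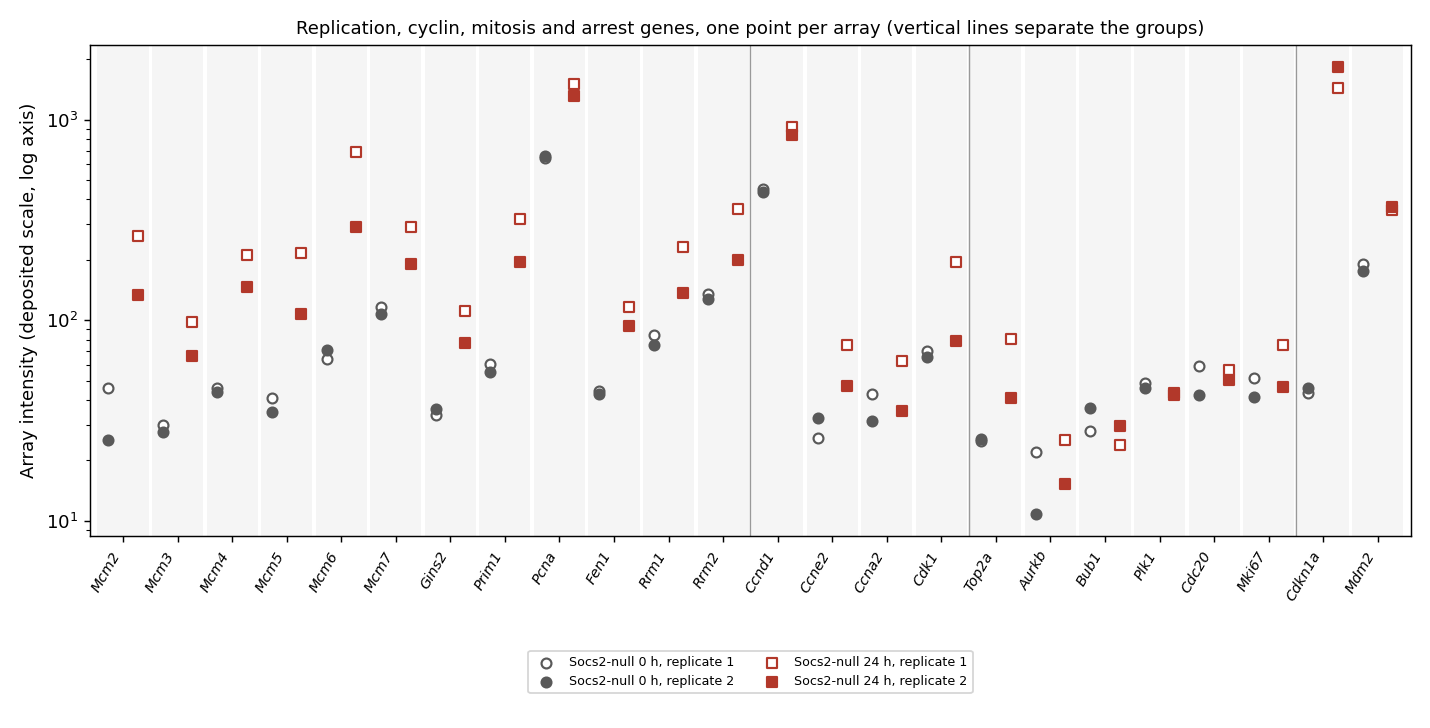
Array intensity (log axis) of replication genes, cyclins and Cdk1, mitosis genes, and Cdkn1a with Mdm2 in Socs2-null liver, 1 point for each array at 0 h (circles) and 24 h (squares), open for replicate 1 and filled for replicate 2. For the MCM genes, Prim1 and Pcna both 24 h points lie above both 0 h points, with replicate 1 the higher, while Plk1, Bub1 and Cdc20 show no such gap.

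The members that fell need care. Tk1, the thymidine kinase of S phase, went from 359 and 351 to 121 and 53.7 (-1.93 ± 0.27, adjusted p = 0.00103), with both 24 h arrays under both at 0 h. Mcm10 is represented by its brightest probe set, which is of a type that can detect related transcripts, and read 1590 and 1287 before and 302 and 149 after. Its remaining probe sets changed by -0.63 and -0.10, so the size of the fall depends on the probe set. Of 27 cyclins, CDKs and their regulators 5 rose, a larger share than the 10.9% of all genes, and 2 fell (median 0.26). Rbl1, a pocket protein bound to E2F, was the member called in every fit with an array left out (27.7 and 31.3 before, 94.0 and 65.3 after, at least 1.69-fold). Counts of rises in this list were 1 without replicate 1 or replicate 2 of 0 h, and 1 with the hybridization covariate. Ccnd1, the G1 cyclin, read 449.9 and 436 before and 915 and 833 after (0.95 ± 0.46, adjusted p = 0.156), separated between the times but not past the threshold. Cdk1, at 70.0 and 65.7 before and 196 and 78.7 after, had an adjusted p of 0.158, Ccna2 one of 0.379, Top2a one of 0.061 and Mki67 one of 0.321.

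In the mitosis list of 35 spindle, kinetochore and checkpoint genes, 4 rose and 5 fell, shares of the order seen over all genes. Its median of 0.09 turned to -0.08 with the hybridization covariate. The rises, Aurka, Mad2l1, Smc2 and Ncapd2, numbered 0 without replicate 2 of 0 h or replicate 1 of 24 h, 2 without replicate 1 of 0 h and 8 without replicate 2 of 24 h. Falls were called in each of these fits for Pttg1, which encodes securin (1533 and 1702 before, 795 and 760.1 after), Cenpf, a kinetochore protein (156 and 179 before, 70.5 and 79.8 after), and Cenpa, the centromeric histone (123 and 134 before, 67.0 and 51.1 after). Their changes of -1.04, -1.01 and -0.95 were larger than the spread between pools, with adjusted p of 0.000257, 0.000336 and 0.00131. Other probe sets changed less, by -0.14 and -0.43 for Cenpf and by -0.21 for Cenpa, so the size of these falls depends on the probe set. All falls of the list were of 3 to 5 genes in those fits.

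Of 8 CDK inhibitors 1 rose and 2 fell, the falls being of Cdkn1c and Cdkn2c. That of Cdkn2c moved with single arrays. Its change was -0.69 and -0.67 without replicate 1 and 2 of 0 h, and -0.95 and -0.41 without replicate 1 and 2 of 24 h. Over all genes 10.9% rose and 13.6% fell. Cdkn1a rose as given above, and Cdkn1c, which encodes p57, fell from 61.4 and 83.3 to 43.5 and 36.9 (-0.64 ± 0.13). Of 20 p53 targets 5 rose and 1 fell, a larger and a smaller share than the 10.9% and 13.6% of all genes. The fall was that of Bbc3, from 125 and 141 to 81.1 and 92.0 (-0.54). Mdm2, the p53 ubiquitin ligase, went from 191 and 176 to 356 and 368 (0.92 ± 0.12, adjusted p = 0.00064), and Gadd45b, a stress-response gene, from 64.6 and 65.4 to 139 and 191 (1.15 ± 0.20). Without replicate 2 of 0 h the rises of the list were 2. Of 24 immediate-early genes, transcribed within minutes of a stimulus, 3 rose, a share near the 10.9% of all genes, led by Fosl2 (52.8 and 54.2 before, 101 and 117 after), and 0 fell by limma, where 13.6% of all genes fell. The rises were 1 without replicate 1 of 0 h or replicate 2 of 24 h.

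Lists of protein-making and protein-handling genes had large shares of rises, where 10.9% of all genes rose and 13.6% fell. Of 35 ribosome biogenesis genes 22 rose and 1 fell (median 0.81), of 17 aminoacyl-tRNA synthetases 13 rose and none fell (median 0.61), of 30 proteasome subunits 24 rose and none fell (median 0.56), and of 27 genes of the unfolded protein response 13 rose and none fell (median 0.76). Ddx21, an RNA helicase of the nucleolus, went from 183 and 196 to 428 and 707 (1.46 ± 0.26, adjusted p = 0.00273). Bysl, needed for the small ribosomal subunit, went from 163 and 149.6 to 289 and 461, and Utp20 and Ftsj3 rose by 0.96 and 0.94. The other probe sets of Ddx21 and Bysl changed less, by 0.71 and 0.43. Hars, the histidyl-tRNA synthetase, read 311 and 307 before and 557 and 719 after (1.00 ± 0.17), and Gars, for glycine, 366 and 364 before and 682 and 788 after (0.98 ± 0.18).

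The proteasome rise was smaller per gene and even between the pools. Psmd14, the deubiquitinase of the lid, had 1111 and 1032 before and 2234 and 2184 after (1.03 ± 0.14, adjusted p = 0.000629), and Psma7, a subunit of the core, 1456 and 1310 before and 2321 and 2286 after (0.73 ± 0.12). Among the chaperones of the endoplasmic reticulum, Hspa5, which encodes BiP, went from 3521 and 3952 to 6367 and 8654 (0.99 ± 0.17, adjusted p = 0.00201), Manf from 1577 and 1623 to 3965 and 6869 (1.70 ± 0.24) and Sdf2l1 from 575 and 379 to 1459 and 2707 (2.05 ± 0.34). Creld2, another secreted stress protein of this compartment, read 584 and 509 before and 2138 and 6099 after. Its change of 2.69 was 1.94 without replicate 2 and 3.44 without replicate 1 of 24 h. The counts of these lists moved with single arrays. Ribosome biogenesis rises were 8, 4, 30 and 6 and synthetase rises 5, 4, 12 and 6 without, in order, replicate 1 and 2 of 0 h and replicate 1 and 2 of 24 h. Proteasome rises were 15 and 13 without replicate 1 and 2 of 0 h and 11 with the hybridization covariate. Using the 4 arrays alone gave 12 and 7 rises for ribosome biogenesis and synthetases.

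In the serine, one-carbon and nucleotide list of 15 genes, 5 rose and 3 fell, larger shares than the 10.9% and 13.6% of all genes. Its members were split, 7 higher and 8 lower, and the median of -0.05 was near the -0.04 of all genes. Psph, which completes serine synthesis after Psat1, went from 132 and 110.2 to 413 and 370.1 (1.57 ± 0.25), and Cad and Umps, enzymes of pyrimidine synthesis, rose by 1.42 and 0.92. The folate enzymes Mthfd1 (1139 and 1186 before, 570.3 and 411 after) and Aldh1l1 (4977 and 5043 before, 2869 and 2441 after) fell. Of 37 oxidative phosphorylation genes 1 rose and 2 fell, smaller shares than the 10.9% and 13.6% of all genes. Of the list 5 were higher and 32 lower, and the median was -0.16. The falls numbered 0 without replicate 1 of 0 h, replicate 2 of 0 h or replicate 2 of 24 h and 4 without replicate 1 of 24 h, and ranged from 0 with centring on array medians to 8 with quantile normalization.

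Both 24 h pools differed from each other along some of these lists. Their arrays also differed in the hybridization controls, at 9.34 and 9.72, against 9.86 and 9.97 at 0 h. With that level as a covariate, the median change went from 0.58 to 0.41 for licensing and from 0.81 to 1.34 for ribosome biogenesis. The part of the hybridization level in the differences between pools was not tested. Replicate 1 exceeded replicate 2 in 15 of 19 licensing genes (median difference 0.45 on the log2 scale) and in 27 of 31 DNA synthesis genes (0.31). The opposite held for ribosome biogenesis, where replicate 1 was the higher in 0 of 35 genes (-0.62), and for 6 of 27 unfolded protein response genes (-0.40) and 2 of 17 synthetases (-0.25). Neutrophil and monocyte markers were lower in replicate 1 in 12 of 13 genes (-0.45), with summed levels of 814 and 2458. At 0 h the same medians lay between 0.00 and 0.08, and over all genes the median difference at 24 h was -0.06. With 2 pools a group this is a description with no test, and each pool averages 3 animals whose own spread was not measured.

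**Figure D3:**
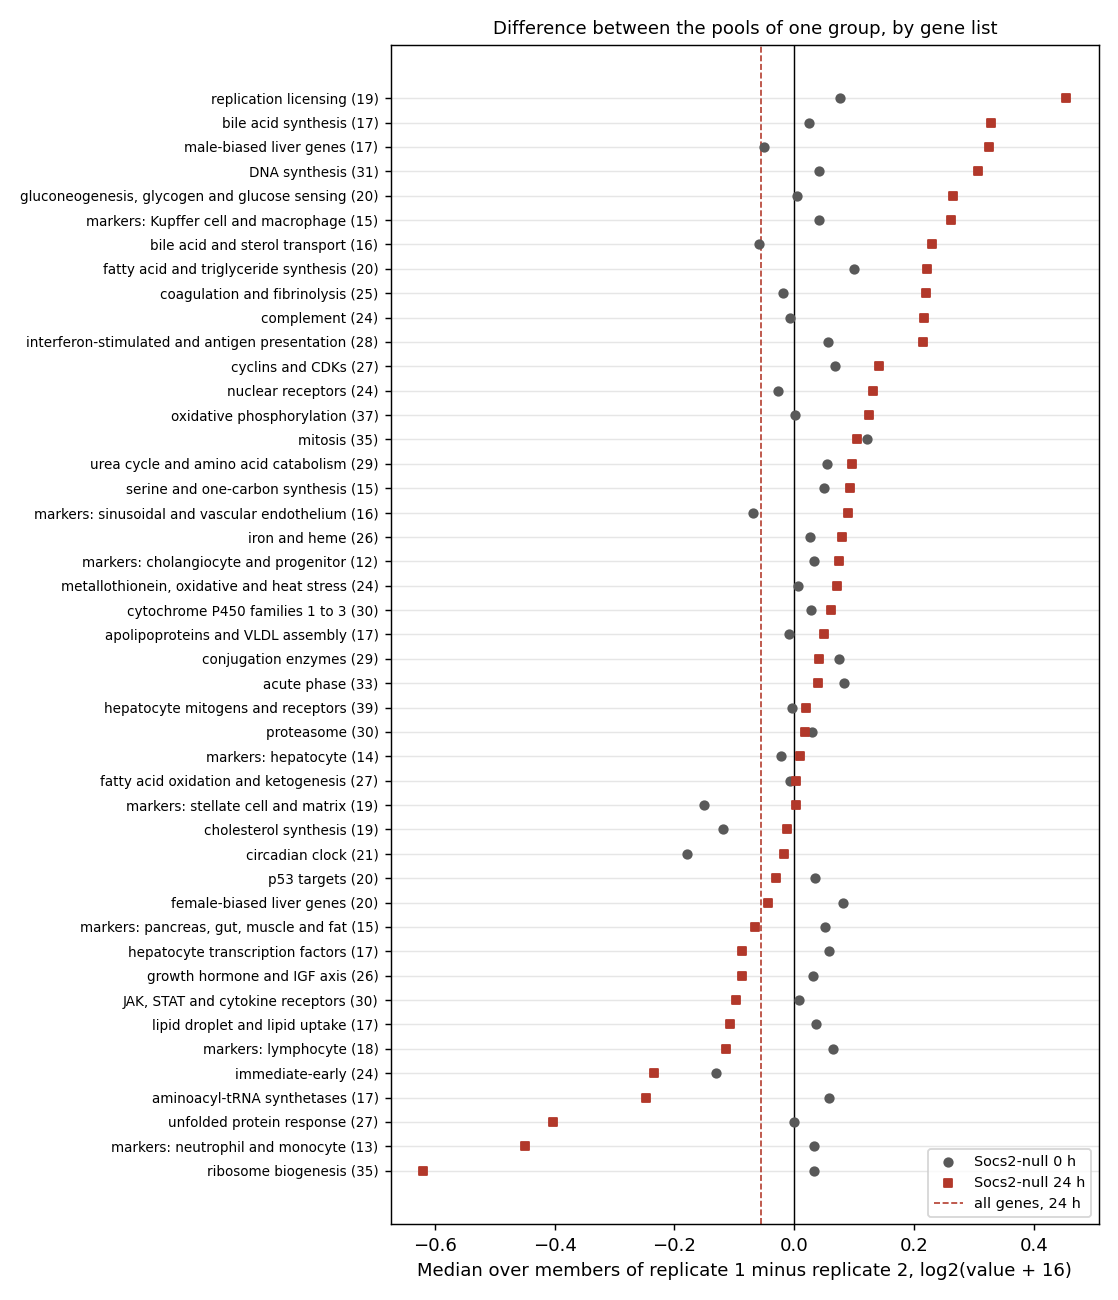
Median over the members of each of 45 lists (number in brackets) of replicate 1 minus replicate 2 on the log2(intensity + 16) scale, at 0 h (grey circles) and 24 h (red squares) in Socs2-null liver; the dashed line is the median of all genes at 24 h, -0.06. Replication licensing lies farthest to the right at 0.45 and ribosome biogenesis farthest to the left at -0.62, and the 0 h points span -0.18 (circadian clock) to 0.12 (mitosis). The 24 h arrays also differed in the level of the hybridization controls.

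Acute phase genes, which hepatocytes switch on under interleukin 6 and interleukin 1, rose, where 10.9% of all genes rose and 13.6% fell. Of 33 measured members 19 rose and 4 fell (median 0.48), with 17 to 19 rises whichever array was left out. Besides Lcn2 and the orosomucoids, Saa1 and Saa2, the serum amyloid A apolipoproteins, went from 2589 and 1327 to 11381 and 11057 and from 4082 and 2352 to 17188 and 17548. Serpina3n, a protease inhibitor, went from 1570 and 1470 to 7935 and 7623 (2.34 ± 0.21, adjusted p = 9.37e-05). Apcs, serum amyloid P, went from 2317 and 1737 to 9505 and 9184 (2.21 ± 0.13, adjusted p = 5.7e-06). The 24 h pools lay close together in these genes, and the 0 h pools of Saa1 and Saa2 were the more spread. Genes already near the top of the range moved less: Hp, haptoglobin, from 10271 and 10167 to 14935 and 13662 (0.48 ± 0.07), and the fibrinogen chains Fga and Fgb by 0.41 and 0.37. Mt1, a metallothionein, went from 4825 and 2265 to 14215 and 16648 (2.21 ± 0.33). Of the negative acute phase proteins, Rbp4, the retinol carrier, fell from 13414 and 13376 to 10914 and 9594 (-0.39 ± 0.08). The falls of the list numbered 2 without replicate 2 of 0 h.

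Of 30 JAK, STAT and cytokine receptor genes 7 rose and 2 fell, a larger and a smaller share than the 10.9% and 13.6% of all genes. The falls were of the receptor genes Lifr and Ifnar2. Il6st, the gp130 chain shared by interleukin 6 and its relatives, went from 551 and 569 to 879.5 and 911 (0.66 ± 0.11, adjusted p = 0.00179). Tnfrsf1a, a receptor for tumour necrosis factor, went from 611 and 579 to 906 and 1340 (0.87 ± 0.17), and Ptpn11, the phosphatase SHP2, from 447 and 448 to 752 and 818 (0.79 ± 0.13). Without replicate 1 or 2 of 0 h the rises were 4, and without replicate 2 of 24 h they were 3; falls were 1 in each of these fits. In the growth hormone and IGF axis, the pathway that SOCS2 restrains, 1 of 26 genes rose and 4 fell, the falls near the 13.6% of all genes. Ghr, the growth hormone receptor, fell from 4396 and 4493 to 2956 and 2039 (-0.85 ± 0.18, adjusted p = 0.00598), and Igfals, which carries IGF1 in blood, from 530.1 and 610.3 to 299 and 204 (-1.15 ± 0.20). Igf1 itself stood at 6603 and 6668 before and 6921 and 7321 after (0.10 ± 0.08, adjusted p = 0.396). Igfbp1, an IGF-binding protein, rose from 1009 and 3081 to 8607 and 7878. Its change of 2.21 was 1.41 without replicate 1 and 3.01 without replicate 2 of 0 h. The STAT5 target Cish read 403 and 91.2 before and 78.5 and 170.5 after (adjusted p = 0.451), with overlapping groups. Of 39 hepatocyte mitogens and receptors 1 rose and 4 fell, smaller shares than the 10.9% and 13.6% of all genes. Vegfa, the endothelial growth factor, was the member called in every fit with an array left out (426 and 497 before, 249 and 256 after). Falls of that list were 1 without replicate 2 of 0 h, 2 without replicate 2 of 24 h and 6 without replicate 1 of 24 h.

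Genes of differentiated hepatocyte metabolism fell, where 13.6% of all genes fell and 10.9% rose. Of 29 urea cycle and amino acid catabolism genes 16 fell and 2 rose (median -0.74), and 13 to 17 fell and 0 to 2 rose whichever array was left out. Agxt, the peroxisomal aminotransferase that removes glyoxylate, went from 2637 and 2909 to 782 and 655 (-1.93 ± 0.13, adjusted p = 1.08e-05). Otc, the mitochondrial step of the urea cycle, fell from 6207 and 5900 to 2737 and 2559 (-1.19 ± 0.15), and Ass1, its next step, from 5288 and 4738 to 2209 and 2699 (-1.03 ± 0.17). Prodh and Uroc1, of proline and histidine breakdown, changed by -1.74 and -1.25. Of 30 cytochrome P450 genes of families 1 to 3, 17 fell and 1, Cyp2b10, rose (median -0.47). Cyp1a2 went from 6753 and 6788 to 2738 and 3293 (-1.17 ± 0.20), whereas Cyp2e1 fell by 0.48, from 13394 and 13711 to 9689 and 9686, and Cyp3a11 by 0.36. The P450 falls numbered 11 and 10 without replicate 1 and 2 of 0 h. Of 29 conjugation enzymes 13 fell and 3 rose. Ugt3a1, a glycosyltransferase, went from 1258 and 1161 to 427 and 453 (-1.43 ± 0.12, adjusted p = 5.2e-05), while the sulfotransferase Sult1a1 rose from 4202 and 3723 to 6749 and 6616 and the glutathione transferase Gstt3 from 610.0 and 401 to 959 and 1681.

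In bile acid synthesis 5 of 17 genes fell and none rose, and in bile acid and sterol transport 7 of 16 fell and none rose, where 13.6% of all genes fell. Abcg8 and Abcg5, which together form the sterol exporter into bile, went from 396 and 416 to 105 and 89.1 (-1.90 ± 0.17, adjusted p = 5.2e-05) and from 526 and 810.5 to 190.2 and 171 (-1.77 ± 0.30). Slco1a1, an organic anion transporter, went from 2036 and 2287 to 654 and 551 (-1.82 ± 0.28). Cyp27a1, which starts the alternative pathway, fell from 4374 and 4301 to 2395 and 2522 (-0.82 ± 0.13). Cyp7a1, the rate-limiting enzyme, read 1076 and 505 before and 229 and 83.1 after, and its adjusted p of 0.0459 was lost without any of the 4 arrays, at 0.213 and 0.0671 without replicate 1 and 2 of 0 h and 0.0821 and 0.309 without replicate 1 and 2 of 24 h. Synthesis falls were 3 without replicate 1 or 2 of 0 h or replicate 2 of 24 h, and transport falls 4 without replicate 1 of 0 h.

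Lipid genes moved in both directions, where 10.9% of all genes rose and 13.6% fell. Of 27 genes of fatty acid oxidation 7 rose and 7 fell. The rises held Cyp4a10, a fatty acid omega-hydroxylase (1717 and 1737 before, 5697 and 4806 after, adjusted p = 6.57e-05), Acot1 (172 and 173 before, 588 and 520.3 after) and Ehhadh, of the peroxisome (1413 and 1418 before, 2567 and 3245 after). The falls held Ppara itself (1549 and 1655 before, 839 and 702 after), Cpt1a, the gate into mitochondria (-0.65 ± 0.13), and Fabp1 (-0.47 ± 0.09). Counts of rises here were 4 without replicate 2 of 24 h and those of falls 3 without replicate 2 of 0 h. Of 17 genes of lipid droplets and lipid uptake 4 rose and 2 fell (median 0.00), with 0 falls without replicate 1 of 0 h and 3 without replicate 1 of 24 h. The droplet coats Plin2 (4657 and 4601 before, 7686 and 11977 after) and Plin5 (434 and 419 before, 1173 and 1517 after) rose by 1.05 and 1.61. The droplet proteins Fitm1 (564 and 373 before, 240.0 and 187 after) and Cideb (2679 and 2674 before, 1944 and 1273 after) fell by 1.06 and 0.76. The adjusted p of Fitm1 was 0.06 without replicate 1 of 0 h, and that of Cideb was 0.112 and 0.116 without replicate 1 and 2 of 0 h and 0.189 without replicate 2 of 24 h. The desaturases Scd1, Fads1 and Fads2 fell by 0.66, 1.21 and 1.31, and 6 of 20 genes of fatty acid and triglyceride synthesis fell in all, 3 without replicate 1 of 0 h or replicate 2 of 24 h. Of 19 cholesterol synthesis genes 1 rose and 5 fell, 3 without replicate 2 of 0 h. Among 17 apolipoprotein and VLDL genes 4 rose, with Apoa4 and Tm6sf2 the largest at 3.30 and 1.48, and 7 fell. Those falls were 4 without replicate 1 or replicate 2 of 0 h.

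Among 17 hepatocyte transcription factors none rose and 2 fell by limma, a share near that of all genes. Cebpa, which restrains hepatocyte proliferation, fell from 1556 and 1721 to 639.8 and 433 (-1.61 ± 0.21, adjusted p = 0.000626), and Nr2f2, an orphan nuclear receptor, from 529.7 and 555 to 342 and 219.7. Rises were 3 without replicate 1 of 24 h and 3 with the hybridization covariate. Of 17 male-biased liver genes 12 fell and none rose (median -0.56), against 13.6% of all genes. Several of these falls are also counted in other lists, so this list is not independent of them. They are Cyp2d9 (P450), Ugt2b1 and Gstp1 (conjugation), Slco1a1 (transport), and C6 and C8a (complement). Selenbp2, a selenium-binding protein, went from 8971 and 9615 to 2206 and 2338 (-2.02 ± 0.09, adjusted p = 7.99e-07), and Nudt7, a peroxisomal hydrolase of coenzyme A, from 7851 and 8131 to 2832 and 3137 (-1.42 ± 0.11). Of 20 female-biased genes 3 rose and 3 fell, shares near the 10.9% and 13.6% of all genes. Atp6v0d2, a proton pump subunit, fell from 122 and 135 to 44.2 and 36.2 (-1.37 ± 0.12), and Cyp3a41a from 258 and 184 to 85.7 and 88.7. Male-biased falls were 7 without replicate 2 of 0 h and 8 without replicate 1 of 0 h, and female-biased rises were 1 without replicate 2 of 24 h. As the labels do not state the animals' sex, both lists are descriptions of these genes only.

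Most transcripts of coagulation and complement proteins fell. Of 25 coagulation and fibrinolysis genes 14 fell and none rose (median -0.39), where 13.6% of all genes fell and 10.9% rose. Klkb1, prekallikrein, went from 3960 and 4109 to 1440 and 629. Its change of -2.06 was -1.47 without replicate 2 and -2.65 without replicate 1 of 24 h, called each time. Proz, protein Z, fell from 2226 and 2115 to 1032 and 600.4 (-1.44 ± 0.20), and Proc, the anticoagulant protein C, from 4650 and 4853 to 3244 and 2823 (-0.65 ± 0.11). Of 24 complement genes 16 fell and 1 rose (median -0.45), beside the same shares of all genes. C8b, of the membrane attack complex, fell from 3292 and 3535 to 1457 and 1848 (-1.05 ± 0.16, adjusted p = 0.0013), and Mbl2, a lectin that starts the cascade, from 3388 and 3521 to 2021 and 1461 (adjusted p = 0.00134). Coagulation falls were 7 and 6 without replicate 1 and 2 of 0 h, 8 without replicate 2 of 24 h and 8 with the hybridization covariate. Complement falls were 10 without replicate 1 of 0 h, replicate 2 of 0 h or replicate 2 of 24 h.

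Of 28 interferon-stimulated and antigen presentation genes 11 fell and none rose (median -0.35), where 13.6% of all genes fell and 10.9% rose. Ifit3 went from 197 and 209.8 to 107 and 78.3 (-1.03 ± 0.16), Irf7, the regulator of interferon genes, from 231 and 263 to 138 and 105 (-0.94 ± 0.15), and the class II chain H2-Eb1 from 311 and 276 to 86.5 and 75.5 (-1.68 ± 0.20, adjusted p = 0.000364). Falls were 7 without replicate 1 or 2 of 0 h. Of 24 stress genes 7 rose and 2 fell, a larger and a smaller share than the 10.9% and 13.6% of all genes. The rises held Slc30a10, a manganese exporter, which went from 91.1 and 76.3 to 411 and 333 (1.96 ± 0.19, adjusted p = 0.000118). Cat, catalase, fell from 6780 and 6802 to 4588 and 3054 (-0.86 ± 0.16). Of 26 iron and heme genes 2 rose and 5 fell (median -0.03), the falls numbering 3 without replicate 2 of 0 h and 8 without replicate 1 of 24 h. The share of rises in the iron and heme list was under the 10.9% of all genes and that of falls over the 13.6%. Tfrc, the transferrin receptor, rose from 328 and 276 to 906 and 1613 (1.95 ± 0.27). Tmprss6, a protease that restrains hepcidin, fell from 1470 and 1460 to 733 and 546 (-1.19 ± 0.16), Alas2, the erythroid enzyme that starts heme synthesis, from 1042 and 1078 to 455 and 406 (-1.27 ± 0.19), and Bmp6, a ligand that induces hepcidin, from 54.8 and 53.2 to 35.2 and 34.3 (-0.46 ± 0.09).

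Clock genes moved in both directions. Of 21 measured members 6 rose and 7 fell, larger shares than the 10.9% and 13.6% of all genes, and rises were 5 whichever array was left out. Arntl and Npas2 encode partners of the activating complex with Clock, Cry1 a repressor of it, and Nfil3 a repressor at the sites where DBP and TEF activate. Cry1 rose from 48.6 and 49.2 to 253 and 240.3 (2.02 ± 0.13, adjusted p = 9.21e-06), Clock from 239 and 228 to 478 and 508 (1.03 ± 0.19) and Nfil3 from 139 and 139 to 500.4 and 539 (1.79 ± 0.23). Arntl went from 28.7 and 35.5 to 319 and 217 (2.54 ± 0.27) in its brightest probe set and changed by 0.03 in the other. Npas2 went from 20.7 and 15 to 108 and 51.2 (1.43 ± 0.24, at least 1.63-fold). Besides Dbp, the falls held Tef, a relative of Dbp, from 783 and 889 to 168 and 216 (-2.04 ± 0.20, adjusted p = 9.37e-05), Nr1d2, which encodes REV-ERB-beta, from 997 and 1095 to 189 and 191 (-2.37 ± 0.28), and Per3, a period repressor, from 123 and 162 to 28.4 and 34.8 (at least 3.00-fold). Falls numbered 4 without replicate 2 of 0 h. Per1 and Per2 were not past the threshold, with changes of 0.25 ± 0.37 and -0.04 ± 0.28. The hour of harvest and the time since the operation cannot be told apart in these genes.

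The activating complex binds the E-box, so promoters of the clock list were searched for CACGTG, a palindrome that reads alike on both strands, over the same 250 bases. It was held by 6 of 25 promoters of 17 of the 21 genes (24.0%), against 6.02% of all promoters. Stretches around it are shown for Cry1, which rose, at chr10:85185075-85185134 (minus strand) and Tef, which fell, at chr15:81802526-81802585 and, for its other start, chr15:81811256-81811315 (plus strand), with the motif in capitals:
Cry1: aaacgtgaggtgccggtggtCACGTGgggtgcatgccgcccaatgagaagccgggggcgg
Tef, first start: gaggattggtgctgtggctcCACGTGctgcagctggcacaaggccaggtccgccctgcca
Tef, other start: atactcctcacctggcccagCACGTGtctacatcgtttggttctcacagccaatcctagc
The match ends 54 bases before the start in Cry1 and 121 and 132 bases before those of Tef. The same letters thus lie before genes that changed in opposite directions.

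**Figure D4:**
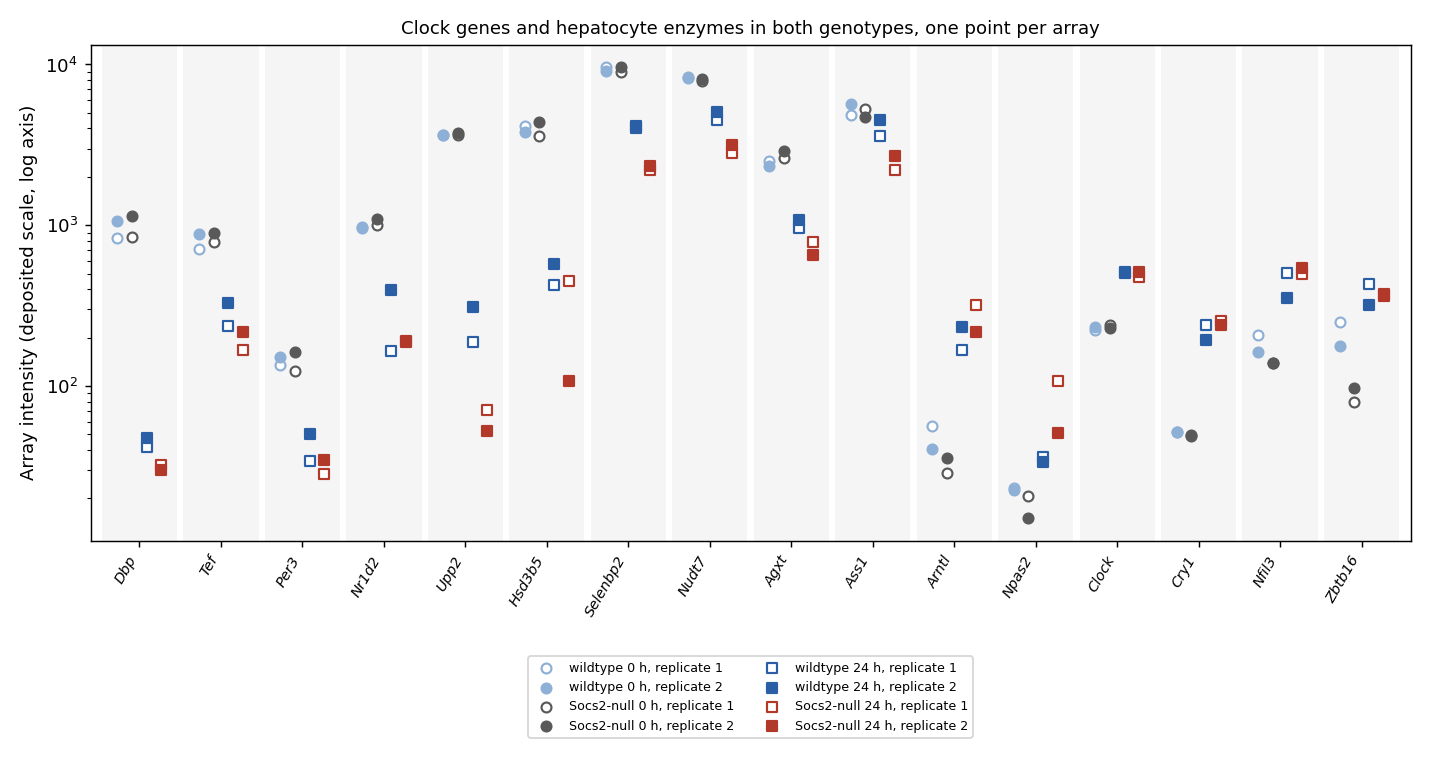
Array intensity (log axis) of clock genes and hepatocyte enzymes, 1 point for each array, in wildtype (blue) and Socs2-null (grey at 0 h, red at 24 h) liver; circles are 0 h, squares 24 h, open points replicate 1 and filled points replicate 2. Dbp falls from 850.3 and 1147 to 32.1 and 29.8 in Socs2-null liver and Cry1 rises from 48.6 and 49.2 to 253 and 240.3. Selenbp2, Nudt7, Agxt and Ass1 lie lower in Socs2-null than in wildtype liver at 24 h, a difference in response that did not pass the threshold.

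Markers of the cell types that a liver sample can hold were read as summed intensity over each list. Their counts of rises and falls stand beside the 10.9% and 13.6% of all genes. The 14 hepatocyte markers summed to 133675 and 134862 at 0 h and 117335 and 120096 at 24 h, and 1 rose and 5 fell. The 15 Kupffer cell and macrophage markers summed to 9272 and 8944 before and 10410 and 7670 after (3 rose, 4 fell). Within that list Marco rose as given above, whereas Clec4f, the lectin that marks resident Kupffer cells, fell from 741 and 760.3 to 434 and 359.7 (-0.90 ± 0.13). The 16 endothelial markers summed to 5014 and 5208 before and 4422 and 4422 after (3 fell), and the 19 stellate cell and matrix markers to 6069 and 6591 before and 6016 and 6178 after (3 rose, 4 fell). In the stellate list Timp1, a metalloproteinase inhibitor, went from 32.6 and 37.3 to 79.1 and 126 (1.19 ± 0.20), and the collectins Colec10 and Colec11 fell by 1.40 and 1.33. Of 7 erythroid markers 4 fell, and 3 of the 7, 1 of them among the falls, lay under background at both times. Their summed level was 8580 and 8413 before and 3938 and 2767 after, most of it Hba-a1, a globin chain, at 7311 and 7135 before and 3369 and 2225 after (-1.39 ± 0.19, adjusted p = 0.000714).

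The 13 neutrophil and monocyte markers summed to 864 and 840 at 0 h and to 814 and 2458 at 24 h, the high value lying in the pool with the higher ribosome biogenesis genes. Of these markers 3 rose and 3 fell, and 5 were higher and 8 lower. Without, in order, replicate 1 and 2 of 0 h and replicate 1 and 2 of 24 h, rises numbered 1, 0, 4 and 2 and falls 1, 0, 0 and 3. The falls were of Csf3r (-0.53 ± 0.16), the receptor for granulocyte colony-stimulating factor, and of the granule proteins Mpo and Ltf (-0.54 ± 0.15). The adjusted p of Csf3r was 0.195 without replicate 2 of 0 h and 0.192 without replicate 1 of 24 h, that of Ltf 0.129, 0.0502 and 0.14 without replicate 1 of 0 h, replicate 2 of 0 h and replicate 1 of 24 h, and that of Mpo 0.0727 to 0.12 without any 1 of the 4 arrays. S100a8 and S100a9, calcium-binding proteins abundant in neutrophils, read 96.3 and 655 and 127 and 953 at 24 h and made up most of the higher sum. S100a8 changed by 2.32 (1.03 without replicate 2 and 3.61 without replicate 1 of 24 h), with an adjusted p of 0.0783 and 0.0811 without replicate 1 and 2 of 0 h. S100a9 changed by 2.25 (0.87 and 3.63 in the same fits), with 0.0852 and 0.119. Lymphocyte markers (18 genes) summed to 777 and 770 before and 632 and 662 after, cholangiocyte markers (12) to 1043 and 1242 before and 1121 and 1073 after, and platelet markers (7) to 580.4 and 575 before and 559.7 and 749 after. Counts of markers that fell moved with single arrays, between 1 and 6 for Kupffer cells, 0 and 2 for endothelium, 2 and 4 for stellate cells and 2 and 4 for hepatocytes as each was left out. The part of these cells in the changes above was not tested.

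The response was then set against that of wildtype liver. The question was whether the 24 h change differed between genotypes, and it was tested as the change in Socs2-null minus the change in wildtype liver in 1 fit. No gene passed in either direction. In simulated arrays this test called 16% of 50 genes changed by 1.5-fold and 48% of 50 changed by 2-fold. The lack of calls therefore does not show that the responses are equal. By limma 654 of 17097 genes had an unadjusted p under 0.05, and the smallest adjusted p was 0.665. With an array left out 1 gene was higher and 11 lower (without replicate 1 of Socs2-null 0 h), 4 higher and 2 lower (without replicate 1 of Socs2-null 24 h) or 2 higher (without replicate 1 of wildtype 24 h). In wildtype liver 1767 genes (10.3%) rose and 2686 (15.7%) fell. By list, licensing genes rose in 9 of 19 and DNA synthesis genes in 14 of 31 in wildtype liver, ribosome biogenesis genes in 27 of 35, proteasome genes in 19 of 30 and acute phase genes in 18 of 33, while falls held 17 of 30 P450 genes, 10 of 17 male-biased genes and 15 of 24 complement genes. Lists called more often in one genotype are not shown to differ, as no member of any list passed the test of the difference.

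**Figure D5:**
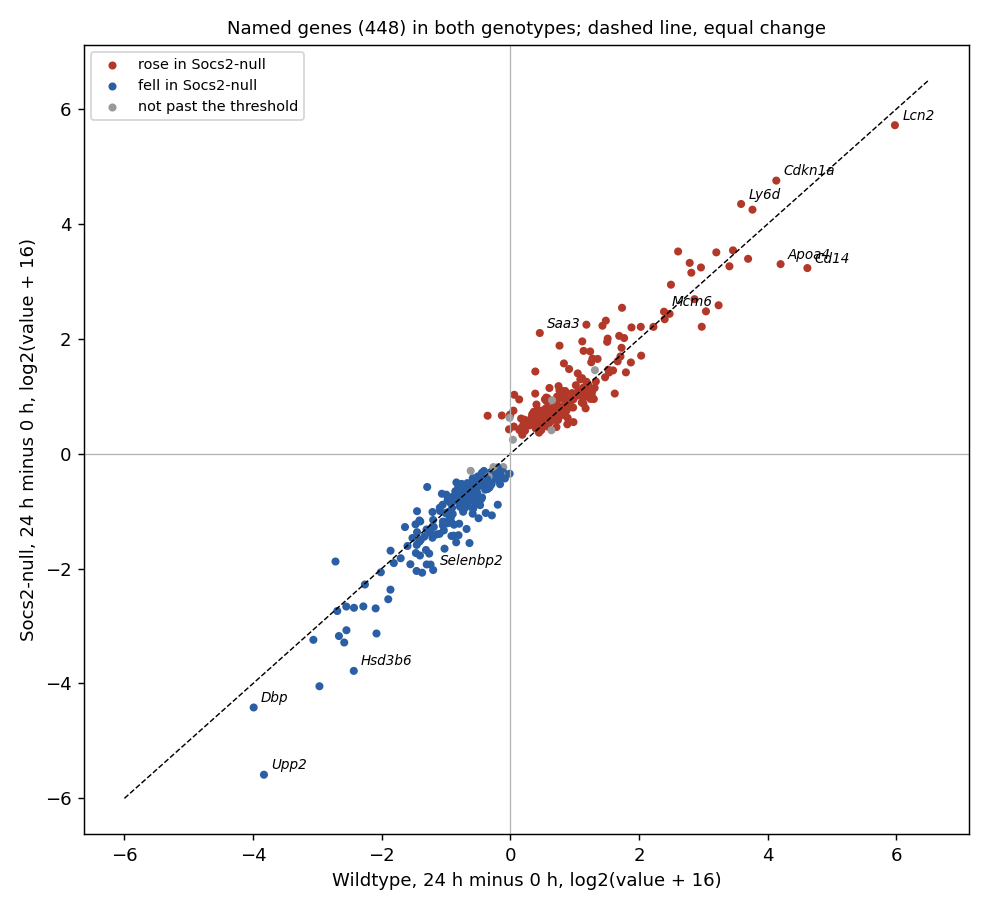
Change from 0 h to 24 h on the log2(intensity + 16) scale in Socs2-null liver against that in wildtype liver for the 448 named genes, which were chosen on the Socs2-null test; red rose, blue fell and grey did not pass in Socs2-null liver, and the dashed line marks equal change. The points lie along the line from Upp2 and Dbp at the lower left to Lcn2 at the upper right, at 5.72 in Socs2-null and 5.98 in wildtype liver.

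The lowest test statistics of the difference belonged to Selenbp2, Ccdc102a and Nudt7. Selenbp2 fell to 2206 and 2338 in Socs2-null and to 4115 and 4030 in wildtype liver, from like levels of 8971 and 9615 and of 9589 and 9152, a difference in change of -0.83 with an unadjusted p of 3.89e-05 (limma adjusted p = 0.665). Nudt7 had a difference of -0.61 and reached 2832 and 3137 against 4506 and 5050 in wildtype liver. Ccdc102a differed by -0.79. At 24 h the arrays of the genotypes did not overlap in Selenbp2 and Nudt7, but both were picked by this statistic, so their separation adds no support. Both belong to the male-biased list, whose members were chosen with earlier results of these data known. The highest statistics belonged to Zbtb16, a zinc finger repressor (1.12), 1810008I18Rik (0.84) and Ttc14 (0.80). Zbtb16 reached 362 and 373 in Socs2-null and 429 and 318 in wildtype liver at 24 h. It started from 79.8 and 96.6 against 249 and 178, so its levels were farther apart at 0 h. Zbtb16 too was picked by this statistic, and its 0 h levels were not tested between genotypes. Upp2 changed by -5.59 in Socs2-null and by -3.83 in wildtype liver (189 and 308 at 24 h), with an unadjusted p of 0.0583 for the difference, and Agxt by -1.93 and -1.24, with 0.00313. None of these is a call after adjustment over all genes.

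Levels at 36 h, the last time of the series, are set beside those at 24 h. On the Socs2-null arrays Lcn2 read 8490 and 8494, Cdkn1a 2375 and 1833 and Dbp 33.2 and 39.0. Mcm6 read 341 and 450.2, Pcna 1148 and 1195 and Ccnd1 1040 and 1348. They are given as levels with no test.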

How the data were processed

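Liver RNA, pooled from 3 animals and used at 10 micrograms an array, was labelled with biotin and hybridized to Affymetrix mouse arrays, per the labels. The values are the deposited intensity of each of 45141 probe sets on a linear scale, from 1 to 24717, as processed by the authors. How they were background-corrected, summarized and scaled is not given in the sources used here, and no further scaling was applied. Apart from 104 controls, 28898 probe sets have 1 gene in the platform annotation (28689 of them matched to the RefSeq table), 551 have several and 15588 have none. Each of 17097 genes took its values from its brightest probe set, judged by the mean of the 12 arrays (7180 genes had several).

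Values were tested as log2(intensity + 16) with no filter, in 1 group-means fit to all 12 arrays (6 groups of 2) with limma 3.58.1 and statmod 1.5.0 in R 4.3.3 (eBayes with trend and robust options). Tests were two-sided, p-values were adjusted by Benjamini-Hochberg across the 17097 genes, and 0.05 was the threshold. The number of arrays limits the precision. The numbers of replicates do not pair the arrays: the correlation of deviations between the 0 h and 24 h Socs2-null arrays was -0.03. Background was the brightest of 17 tag control probe sets on an array; where both arrays of a group lay under it, folds against that group are bounds. Of 1117 members of the 48 gene lists, 994 were measured. The members and lists were chosen with earlier results of these data known, and lists are described by counts and medians with no test. Genes named are Socs2, the 15 largest rises and falls whose arrays separate the times and are over background in the higher group, list members past the threshold (up to 4 with the smallest p where fewer pass), the 3 highest and lowest statistics of the difference between genotypes, and cell type markers; those whose call rests on single arrays were mostly left out. Ccnd1, Cdk1, Ccna2, Top2a, Mki67, Igf1, Cish, Per1, Per2 and Alb were named after their values were seen. The fit was tested on simulated data. Alternatives were pseudocounts of 1 and 64, quantile normalization, centring on medians, dropping dim genes, other choices of probe set, plain eBayes, arrayWeights, a replicate block, the compared arrays alone, the mean of 18 hybridization control probe sets as a covariate, and leaving out each array. Python 3.11.15 with matplotlib 3.10.9 drew the figures.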

Additional observations from a re-analysis of the deposited data

How the results depend on the processing

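Of the values for single genes and lists under the alternatives, 18821 counted as unchanged, 1035 lost their call, 18 gained one, 399 moved and 5 reversed. Unchanged includes list counts within 1.5 times the main count and list medians near the main one. It also includes genes that stayed short of the threshold, whatever their direction. Values for the difference between genotypes are counted too, where no gene had a call to lose. The count of 1857 rises and 2319 falls became 3529 and 4891 with all probe sets tested, and 1210 and 1252 with the compared arrays alone, where fewer arrays estimate the spread. Without the dimmest 50% of genes, 1420 fell. Leaving out each array gave 793 to 1875 rises and 1221 to 1895 falls. Under every alternative that tested the gene, 507 rises and 680 falls were called. With a replicate block 1732 genes rose, 2188 fell and none differed between genotypes (654 genes without the block at an unadjusted p under 0.05, by limma), so the block moved neither count by more than 1.5 times. The difference between genotypes gave 0 to 4 higher and 0 to 11 lower genes as arrays were left out: 1 and 11 without replicate 1 of Socs2-null 0 h, 4 and 2 without replicate 1 of Socs2-null 24 h, and 2 and 0 without replicate 1 of wildtype 24 h. Without cross-hybridizing probe sets the sign turned for E2f1 (0.29), Fabp4 (-0.53), Tfpi (0.044) and Acta2 (-0.16), and with the mean of probe sets for Ifnar2 (0.017), as other probe sets then stand for these genes. Changes of dim genes are limited by the background.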
